A study of Homo sapiens with 9 samples.

Results

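The genes examined here encode intermediate filament proteins other than keratins: vimentin (VIM), nestin (NES), synemin (SYNM), the neurofilament chains NEFL, NEFM and NEFH, and the nuclear lamins LMNA, LMNB1 and LMNB2. They were chosen by gene symbol, and each of the 9 symbols matched 1 of the 58676 rows of the count table. RNA-seq had been carried out in OVCA433, an established ovarian serous adenocarcinoma cell line, in 9 libraries. The 3 control libraries carried a control vector, 3 libraries carried shRNA#1-MPZL3 and 3 carried shRNA#3-MPZL3, with replicates marked A, B and C in each group. All 3 groups were lentivirally transduced and puromycin-selected. The study describes the OVCA433 control as an empty vector in its methods and as a scrambled hairpin elsewhere, so whether the control expressed a hairpin is uncertain. The replicates are described as biological, but the labels do not say how the cultures were separated.

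Intermediate filaments are rope-like polymers that give cells and nuclei mechanical strength. Simple epithelial cells build them from paired type I and type II keratins, whereas mesenchymal cells build them from the type III protein vimentin, and a gain of vimentin with a loss of keratins is a classical feature of epithelial-mesenchymal transition (EMT). Nestin and synemin are type IV proteins that do not form filaments alone and co-assemble with vimentin, while the neurofilament chains belong to neurons. Lamins are the type V proteins of the nuclear lamina, with A-type lamins from LMNA and B-type lamins from LMNB1 and LMNB2.

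The end of the coding sequence is shown for 3 lamin transcripts because it encodes the site at which these lamins are modified. Prelamin A (the precursor of lamin A), lamin B1 and lamin B2 are made with a CaaX box at their end, 4 residues beginning with the cysteine that receives a farnesyl group. In the GENCODE release 29 transcripts the 4 codons of the box, in capitals, stand just before the stop codon. The last 30 coding bases, 5′ to 3′ on the sense strand, are as follows.
lamin A: cagagcccccagaacTGCAGCATCATGtaa
lamin B1: gcatccaatagaagcTGTGCAATTATGtaa
lamin B2: accacctcaagaggcTGCTACGTGATGtga
The coding sequences held 664 codons for lamin A, 586 for lamin B1 and 620 for lamin B2, stop codon left out. LMNA also gives rise to lamin C by alternative splicing, and the LMNA counts below sum all products of the gene.

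The promoters of the 3 filament genes whose level differed at least 2-fold from control with 1 hairpin or both are shown because these genes carry the changes described below. Each runs from 250 bases before the RefSeq start to 50 bases after it on GRCh38.p14. Capitals mark matches to GGGCGG (GC box), TATAAA (core promoter element), CANNTG (E-box) and TGANTCA (AP-1 site), searched on both strands.
VIM promoter, chr10:17227991-17228290, plus strand: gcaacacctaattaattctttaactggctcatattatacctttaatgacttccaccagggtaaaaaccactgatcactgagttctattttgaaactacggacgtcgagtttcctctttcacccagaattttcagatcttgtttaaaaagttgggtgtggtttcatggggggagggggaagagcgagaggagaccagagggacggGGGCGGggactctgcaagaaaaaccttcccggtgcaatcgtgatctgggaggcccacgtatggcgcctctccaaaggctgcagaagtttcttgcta
NES promoter, chr1:156677358-156677657, minus strand: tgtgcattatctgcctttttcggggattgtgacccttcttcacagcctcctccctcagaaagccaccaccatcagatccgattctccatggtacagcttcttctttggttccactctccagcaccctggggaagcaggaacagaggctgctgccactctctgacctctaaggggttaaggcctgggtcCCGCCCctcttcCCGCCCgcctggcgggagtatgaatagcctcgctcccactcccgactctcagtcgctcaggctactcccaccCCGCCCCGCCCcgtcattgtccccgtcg
SYNM promoter, chr15:99104830-99105129, plus strand: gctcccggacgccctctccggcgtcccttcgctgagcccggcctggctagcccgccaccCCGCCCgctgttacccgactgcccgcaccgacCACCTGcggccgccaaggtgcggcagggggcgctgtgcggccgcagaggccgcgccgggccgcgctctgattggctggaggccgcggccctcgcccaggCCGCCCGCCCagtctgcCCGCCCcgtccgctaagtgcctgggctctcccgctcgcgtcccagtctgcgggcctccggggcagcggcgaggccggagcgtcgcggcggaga
VIM held 1 GC box and 10 CG dinucleotides. NES held 4 GC boxes, 2 of them overlapping, and 14 CG dinucleotides. SYNM held 4 GC boxes, 2 of them overlapping, 1 E-box and 43 CG dinucleotides. Neither a TATAAA match nor an AP-1 site was found in these windows. Of 34943 promoters of the same length, 44.9% held a GC box, 11.6% a TATAAA match, 68.7% an E-box and 7.72% an AP-1 site, and the median number of CG dinucleotides was 14. These matches describe letters only. RefSeq promoter entries were found for 6 of the 9 genes.

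Library totals ranged from 16850854 to 23890191 counts. Levels are given as CPM, read counts relative to library size, scaled with TMM factors, and 3 counts corresponded to 0.129 to 0.177 CPM per library, a limit that covers counting error only. The targeted gene MPZL3 stood at 19.5 CPM on average in control, 1.88 with shRNA#1 and 1.58 with shRNA#3, and it was lower in all 6 knockdown libraries. PAX8, a marker of the Müllerian lineage, was present in all groups. It stood at 97.0, 200 and 207 CPM in control, shRNA#1 and shRNA#3. WT1, another serous marker, had no count in any library. Both belong to a list of 8 serous and epithelial identity genes, of which 7 were tested. With both hairpins pooled, 3 of these 7 were called higher, PAX8 among them, as defined below, and EPCAM was called lower. Of all tested genes 15.9% were called higher and 17.0% lower. CDH1 fell from 275 CPM in control to 0.112 and 0.148 CPM with shRNA#1 and shRNA#3. EPCAM fell from 403 to 5.48 and 8.93 CPM in that order. MUC16, at 3.18 CPM in control, had no count in knockdown, and CDH1 had at most 6 counts in any knockdown library. Both were also called lower but passed the filter on low counts only through control libraries, so their calls support no count.

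Calls were made at an adjusted p under 0.05 with edgeR's quasi-likelihood test over the 15975 genes that passed the filter on low counts. VIM, NES, SYNM, LMNA, LMNB1 and LMNB2 passed it and the 3 neurofilament genes did not. With both hairpins pooled (n = 6) against control (n = 3), VIM, NES and LMNB2 were called, all 3 higher, where 33.0% of all tested genes were called, 15.9% higher and 17.0% lower. SYNM passed the filter only through the shRNA#1 libraries, where it was high, so its calls in the filtered table are given as values and support no count. With shRNA#1 against control VIM and NES were called higher, beside SYNM, and 18.0% of tested genes were called higher. With shRNA#3 against control the genes called were VIM, NES and LMNB2, all higher, and 16.6% of tested genes were called higher. Between the hairpins NES was called higher with shRNA#3 and SYNM, with the same limit, lower, where 11.6% of tested genes were called in either direction. The hairpin comparisons share the control libraries.

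**Figure D1:**
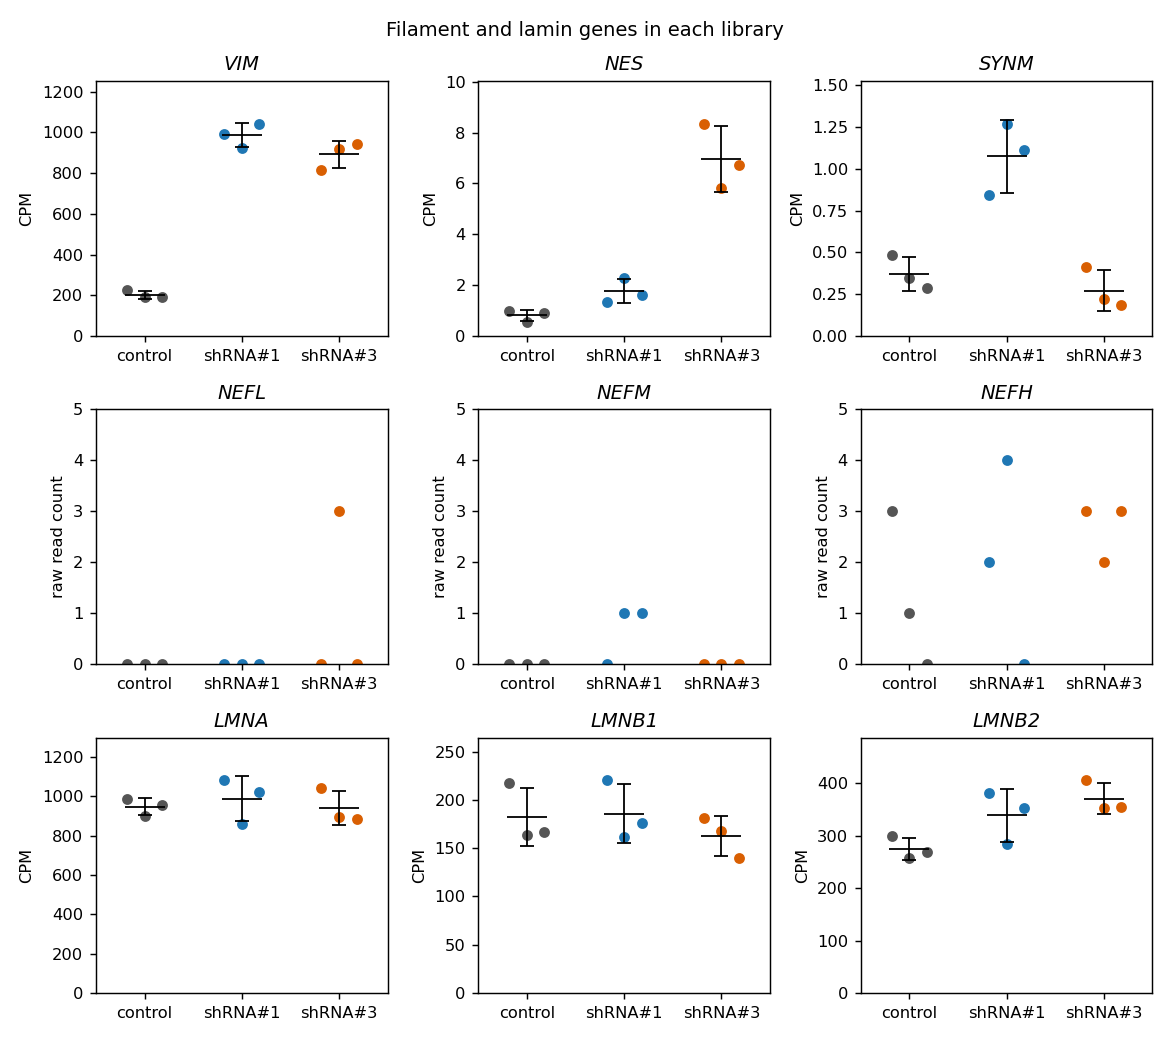
Each panel plots 1 gene, with TMM-scaled CPM on the y axis for the 6 tested genes and raw read counts for the 3 neurofilament genes, and points are libraries in the order A, B, C within each group, with the mean and SD (n = 3) as bars where CPM is shown. VIM separated the control libraries (192 to 225 CPM) from all knockdown libraries (817 to 1044 CPM), NES was highest with shRNA#3, SYNM was highest with shRNA#1, and the neurofilament counts did not exceed 4.

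VIM (ENSG00000026025, chr10:17228259-17237593, plus strand, hg38), the main filament protein of mesenchymal cells, was already expressed in control OVCA433 cells and rose strongly with both hairpins. In control, libraries A to C gave 225, 192 and 192 CPM. The shRNA#1 libraries held 992, 926 and 1044 CPM, and the shRNA#3 libraries held 817, 917 and 943 CPM. Every knockdown library was thus above every control library, and the ranges of the hairpins overlapped each other. VIM rose 4.86-fold with shRNA#1 (log2 2.28 ± 0.11 SE, adjusted p = 3.645e-09, edgeR) and 4.39-fold with shRNA#3 (log2 2.14 ± 0.11, adjusted p = 7.447e-09, edgeR). The pooled log2 fold change was 2.21 ± 0.11 (adjusted p = 2.755e-08, edgeR). The difference between hairpins was log2 -0.15, with a 95% interval from -0.37 to 0.08 (adjusted p = 0.448, edgeR).

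The gain made VIM an abundant transcript. Per kb of gene length as the file gives it, VIM ranked 1062 of 15975 tested genes in control, 147 with shRNA#1 and 169 with shRNA#3. In mean CPM its pooled gain of 737 was the rank 11 gain of all tested genes, although by fold change it ranked 459. The antisense gene VIM-AS1 overlaps VIM by 1727 bases on the opposite strand, and the libraries carried no strand information. VIM-AS1 held 11 to 36 counts per library and 0.148% as many counts as VIM in all. Its log2 fold change was -1.0 ± 0.36 with shRNA#1 (adjusted p = 0.0425, edgeR) and -0.38 ± 0.35 with shRNA#3 (adjusted p = 0.447, edgeR). The 50 nearest well-expressed genes of VIM, 25 on each side, had a median pooled log2 fold change of -0.04 with 22 of 50 higher, so the rise was not shared by the neighbourhood median.

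The keratins with which VIM shares the cytoplasm moved the other way. Of 7 listed simple epithelial keratins 6 were tested. KRT8, KRT18, KRT19 and KRT80 fell and none rose in the pooled comparison. The median log2 fold change of the 6 tested was -1.66 against 0.00454 over all tested genes. Of all tested genes 17.0% were called lower. KRT23 was also lower but passed the filter only through the control libraries, so its call supports no count. KRT8 and KRT18, the obligate partner pair of simple epithelia, fell to 2114 and 795 CPM with shRNA#1 from 4816 and 2175 CPM in control, and stood at 2148 and 846 CPM with shRNA#3. KRT19 fell from 1550 CPM to 132 and 87.0 CPM with shRNA#1 and shRNA#3. KRT7, the most abundant keratin left, had a pooled log2 fold change of -0.47 (adjusted p = 0.085, edgeR) and fell with shRNA#3 (log2 -0.63, adjusted p = 0.0280, edgeR). Of the 10 stratified or hair keratins 4 were tested. KRT15 fell, as did KRT81 from 2307 CPM to 60.3 and 76.5 CPM. KRT16 was also lower but passed the filter only through the control libraries, so its call supports no count. The median log2 fold change of the 4 tested was -4.57, or -3.36 with KRT16, which had no count in the knockdown libraries, at the bound its floor allows.

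VIM therefore took a larger share of a smaller filament pool. Its share of the summed per-length level of VIM, NES, SYNM, the neurofilament genes and 17 keratins was 1.31%, 0.905% and 0.799% in control libraries A, B and C. It was 14.9%, 12.3% and 12.1% with shRNA#1 and 12.6%, 13.3% and 12.8% with shRNA#3, so no knockdown library overlapped control. The sum itself was 3458 to 4831 CPM per kb in control, 1344 to 1733 with shRNA#1 and 1310 to 1480 with shRNA#3. Keratins thus still made up most of the measured filament RNA in every library. The ratio of VIM to KRT8 plus KRT18 was 0.0298 ± 0.0037 (SD, n = 3) in control, 0.360 ± 0.020 with shRNA#1 and 0.314 ± 0.037 with shRNA#3. Bulk RNA cannot tell a change in the share of VIM-positive cells from a change of VIM RNA per cell.

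**Figure D2:**
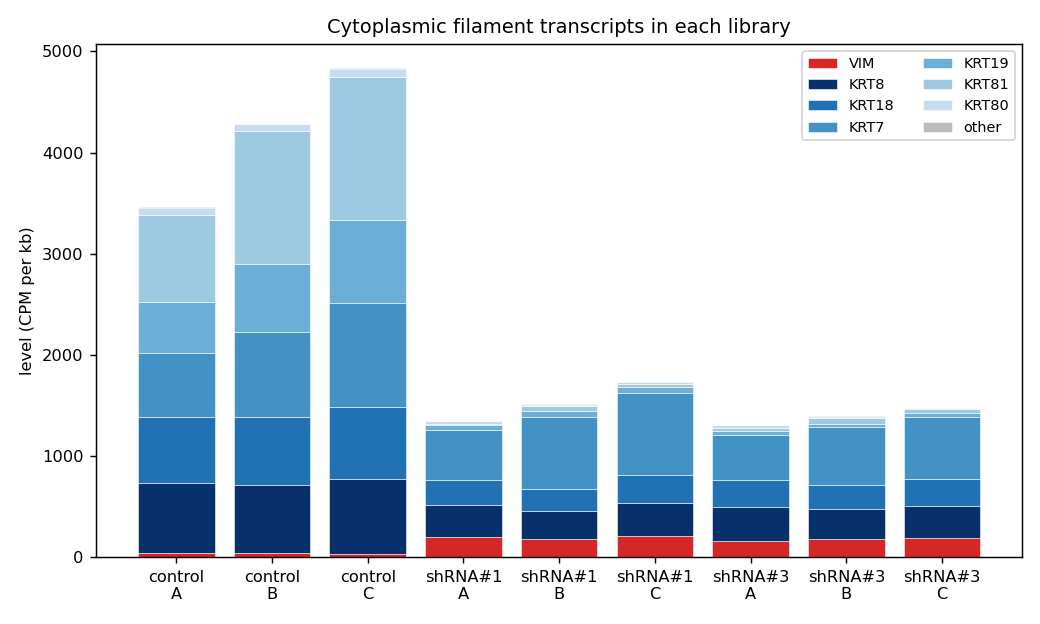
Stacked bars give the level in CPM per kb of gene length for VIM (red), named keratins (blues) and the remaining genes of the set (grey) in each of the 9 libraries. The control bars reach 3458 to 4831 CPM per kb with a VIM share of about 1%, and the knockdown bars reach 1310 to 1733 with a VIM share of 12.1% to 14.9%.

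Markers of other cell types that may hold VIM were read in the same libraries. Of 10 listed fibroblast markers 6 were tested. COL1A1, ACTA2 and LUM rose in the pooled comparison, where 15.9% of all tested genes were called higher. The LUM value with shRNA#3 alone was not called (log2 0.66, adjusted p = 0.073, edgeR). COL1A2, COL3A1 and PDGFRB were also higher but passed the filter only through the knockdown libraries, so their calls support no count. The summed level of the list was 21.2 to 24.2 CPM in control, 113 to 452 CPM with shRNA#1 and 508 to 875 CPM with shRNA#3. Most of it was COL1A1, a fibrillar collagen chain, at 17.9, 312 and 641 CPM in control, shRNA#1 and shRNA#3. In the same order PDGFRB stood at 0.555, 13.8 and 16.8 CPM, COL1A2 at 0.0161, 2.65 and 0.869 CPM and ACTA2 at 1.99, 4.72 and 4.51 CPM. FAP, which was not tested, went the other way, at 0.55, 0.35 and 0.129 CPM. DCN, a defining fibroblast gene, had no count in any library, and THY1 and PDGFRA averaged at most 0.27 and 0.34 CPM in any group. Of 5 mesothelial markers 3 were tested, of which BNC1 rose (log2 1.83) and UPK3B fell (log2 -6.49), and their summed level was 63.6 to 84.7 CPM in control and 43.1 to 73.2 CPM in knockdown. Of 7 immune and endothelial markers 3 were tested, with summed levels of at most 6.40 CPM. CDH5 was higher but passed the filter only through the knockdown libraries. The part of these markers in the VIM result was not tested.

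NES (ENSG00000132688, chr1:156668763-156677397, minus strand), a filament protein of progenitor cells and regenerating tissue, was a scarce transcript that rose with both hairpins but to different heights. Raw counts were 20, 11 and 19 in control libraries A, B and C. They were 29, 45 and 38 with shRNA#1 and 142, 106 and 146 with shRNA#3. The 3 groups did not overlap in CPM, the means being 0.808 ± 0.228 (SD, n = 3), 1.76 ± 0.48 and 6.96 ± 1.29. NES rose 2.15-fold with shRNA#1 (log2 1.11 ± 0.31 SE, adjusted p = 0.0118, edgeR) and 8.53-fold with shRNA#3 (log2 3.09 ± 0.28, adjusted p = 1.788e-06, edgeR). The hairpins differed by 1.99 ± 0.26 on the log2 scale (adjusted p = 2.507e-04, edgeR). The pooled log2 fold change was 2.41 ± 0.64 (adjusted p = 0.0123, edgeR), and the pooled arm contains this difference between hairpins.

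The NES calls in the pooled and shRNA#1 comparisons rested on single libraries. Without control library B the adjusted p was 0.0625 pooled and 0.0583 with shRNA#1, and without shRNA#1 library B it was 0.0564 with shRNA#1 (edgeR). Even with shRNA#3, NES ranked 11212 of 15975 tested genes per kb, from 14994 in control. The 50 nearest well-expressed genes had a median log2 fold change of 0.10 with shRNA#3, against 3.09 for NES.

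SYNM (ENSG00000182253, chr15:99098217-99135593, plus strand), which links vimentin or desmin filaments to the cell cortex, was higher with shRNA#1 and not with shRNA#3. Raw counts were 10, 7 and 6 in control, 18, 25 and 26 with shRNA#1, and 7, 4 and 4 with shRNA#3. All shRNA#1 libraries were above all others, and the shRNA#3 libraries overlapped control. In the filtered table the level with shRNA#1 was 2.85-fold that of control (log2 1.51 ± 0.40 SE, adjusted p = 0.00897, edgeR), a value conditioned on the shRNA#1 libraries being high. With no filter on low counts, where SYNM needed no high group to be tested, the log2 fold change was 1.51 (adjusted p = 0.0133, edgeR). With shRNA#3 the log2 fold change was -0.48, with a 95% interval from -1.54 to 0.58 (adjusted p = 0.498, edgeR). The difference between hairpins was -1.99 ± 0.43 on the log2 scale, shRNA#3 minus shRNA#1 (adjusted p = 0.00886, and 0.00383 with no filter, edgeR), and the call in the filtered table was lost without shRNA#3 library B (adjusted p = 0.0538) or C (adjusted p = 0.0555). The pooled log2 fold change was 0.86 ± 0.62 (adjusted p = 0.320, edgeR). An antisense gene overlapping SYNM, RP11-654A16.3, held at most 5 counts in any library and 16.8% as many counts as SYNM in all, and reads of the 2 strands could not be told apart.

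**Figure D3:**
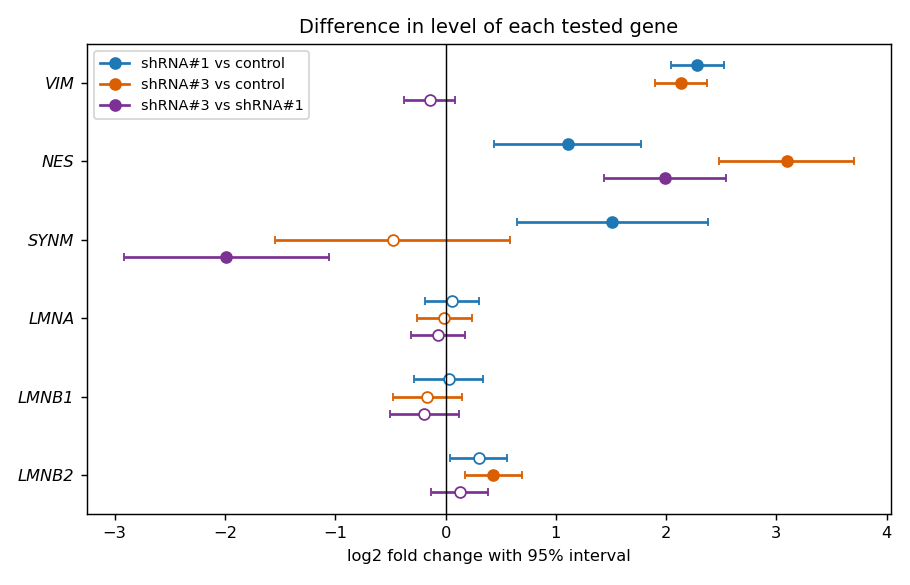
Points give the edgeR log2 fold change of each tested gene with its 95% interval as a bar, filled where the adjusted p was under 0.05, for shRNA#1 and shRNA#3 against control and for shRNA#3 against shRNA#1. VIM rose with both hairpins by similar amounts, NES and SYNM differed between hairpins by 1.99 and -1.99, and the LMNA and LMNB1 intervals all include 0.

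The neurofilament chains stayed at or near the limit of detection. NEFL (chr8:24950955-24957110), the light chain, had 3 counts in shRNA#3 library B and none in the other 8 libraries. NEFM (chr8:24913012-24919098), the medium chain, had 1 count in each of shRNA#1 libraries B and C and none elsewhere. NEFH (chr22:29480230-29491390), the heavy chain, held 3, 1 and 0 counts in control, 2, 4 and 0 with shRNA#1, and 3, 2 and 3 with shRNA#3. No difference in these genes was detectable at this depth, and no fold is given. Some other neuronal genes were measured above this limit. Of 10 neuronal markers 6 were tested, of which GAP43 rose and MAP2 fell in the pooled comparison. SNAP25 and RBFOX3 were also higher but passed the filter only through the knockdown libraries, so their calls support no count. RBFOX3 stood at 0.165, 0.947 and 23.9 CPM in control, shRNA#1 and shRNA#3. SNAP25, a synaptic fusion protein, differed between hairpins in the same direction as NES, with 0.274, 1.69 and 6.67 CPM in control, shRNA#1 and shRNA#3, while GAP43, a growth cone protein, stood at 2.24, 26.3 and 12.6 CPM. The summed level of the neuronal list was 617 to 696 CPM in control, 616 to 733 with shRNA#1 and 573 to 763 with shRNA#3, most of it UCHL1, and ELAVL3, ELAVL4 and STMN2 were at 3 counts or fewer in each library. The part of these genes in the NES result was not tested.

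Of 7 other type III, type IV and lens filament genes (DES, GFAP, PRPH, INA, BFSP1, BFSP2 and SYNC) 3 passed the filter. SYNC, which encodes the desmin-binding protein syncoilin, rose from 8.0 CPM to 19.6 and 17.8 CPM (pooled log2 1.23, adjusted p = 3.1e-05, edgeR). BFSP1, a lens filament gene, fell from 3.09 to 1.29 and 1.98 CPM (pooled log2 -0.92, adjusted p = 0.016, edgeR), a fall that was not called with shRNA#3 alone (adjusted p = 0.064). GFAP, the type III protein of astrocytes, stood at 4.97, 11.2 and 6.45 CPM in control, shRNA#1 and shRNA#3. It rose with shRNA#1 (log2 1.16, adjusted p = 0.00176, edgeR), and its value with shRNA#3 was 0.37 (adjusted p = 0.273, edgeR). The hairpins differed by -0.79 (adjusted p = 0.0475, edgeR), and GFAP was not called in the pooled comparison (adjusted p = 0.0568, edgeR). The median pooled log2 fold change was 0.825.

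LMNA (ENSG00000160789, chr1:156082573-156140089, plus strand) was the most abundant lamin transcript per kb and showed no detectable difference. Control libraries held 988, 900 and 956 CPM. The shRNA#1 libraries held 1081, 860 and 1023 CPM, and the shRNA#3 libraries held 1042, 894 and 885 CPM. The groups overlapped fully. The pooled ratio to control was 1.02, with a 95% interval from 0.874 to 1.18 (adjusted p = 0.880, edgeR). In the 3-group model the log2 fold change was 0.06 ± 0.11 with shRNA#1 and -0.01 ± 0.11 with shRNA#3.

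LMNB1 (ENSG00000113368, chr5:126776623-126837020, plus strand), the B-type lamin whose loss is a known mark of senescent cells, also overlapped between groups. It held 217, 163 and 167 CPM in control (raw counts 4485, 3285 and 3485), 220, 162 and 176 CPM with shRNA#1, and 181, 168 and 140 CPM with shRNA#3. The ratio to control was 1.02 with shRNA#1 (95% interval 0.820 to 1.27, adjusted p = 0.905, edgeR) and 0.892 with shRNA#3 (0.717 to 1.11, adjusted p = 0.422, edgeR). Its neighbourhood on chromosome 5 sat slightly lower with shRNA#3: the 50 nearest well-expressed genes had a median log2 fold change of -0.23, with 9 of 50 higher, against -0.17 for LMNB1. Against shRNA#1, the values with shRNA#3 were -0.20 for the neighbours, with 2 of 50 higher, and -0.19 for LMNB1.

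LMNB2 (ENSG00000176619, chr19:2427638-2456996, minus strand), the other B-type lamin, was the lamin gene with a called change, and the change was small. It held 299, 258 and 268 CPM in control, 381, 284 and 353 CPM with shRNA#1, and 406, 353 and 355 CPM with shRNA#3. The shRNA#3 libraries were all above control, whereas shRNA#1 library B lay inside the control range. LMNB2 rose 1.35-fold with shRNA#3 (log2 0.43 ± 0.12 SE, adjusted p = 0.0128, edgeR) and 1.29-fold pooled (log2 0.37 ± 0.11, adjusted p = 0.0246, edgeR). With shRNA#1 the log2 fold change was 0.30 ± 0.12 (adjusted p = 0.0634, or 0.0136 without shRNA#1 library B, edgeR), and the hairpins differed by 0.13, with a 95% interval from -0.13 to 0.39 (adjusted p = 0.568, edgeR). The pooled call was lost without control library B (adjusted p = 0.122) or C (adjusted p = 0.0931), and the shRNA#3 call without control library B (adjusted p = 0.0668). TIMM13, a mitochondrial import gene on the same strand, overlaps the end of LMNB2 by 257 bases, and its log2 fold change was -0.34 with shRNA#1 and 0.12 with shRNA#3. The chromosome 19 median was -0.15 in the pooled comparison and that of the 50 nearest well-expressed genes was 0.01.

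Lamin balance shifted slightly toward LMNB2. Per kb, LMNB2 over LMNB1 was 0.921, 1.06 and 1.08 in control libraries A, B and C, 1.16, 1.17 and 1.34 with shRNA#1, and 1.5, 1.41 and 1.7 with shRNA#3. The 3 groups did not overlap in this ratio. LMNA over LMNB1 plus LMNB2 was 1.35 ± 0.11 (SD, n = 3) in control, 1.25 ± 0.06 with shRNA#1 and 1.19 ± 0.03 with shRNA#3, and control library A at 1.23 lay inside the shRNA#1 range. These ratios are descriptions without a test.

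The lamin genes also varied by replicate letter. LMNA, LMNB1 and LMNB2 were each highest in library A of all 3 groups, which held for 16.1% of all tested genes, and VIM, NES and SYNM did not share it. Of 5 proliferation and senescence genes looked at in the same way, MKI67 and HMGB1 were highest in library A of all groups, and TOP2A, HMGB2 and CDKN1A were not. MKI67 stood in the A libraries at 583, 669 and 605 CPM in control, shRNA#1 and shRNA#3. The pooled log2 fold change of MKI67 was 0.14 (adjusted p = 0.63, edgeR). The labels do not say what the letters stand for.

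**Figure D4:**
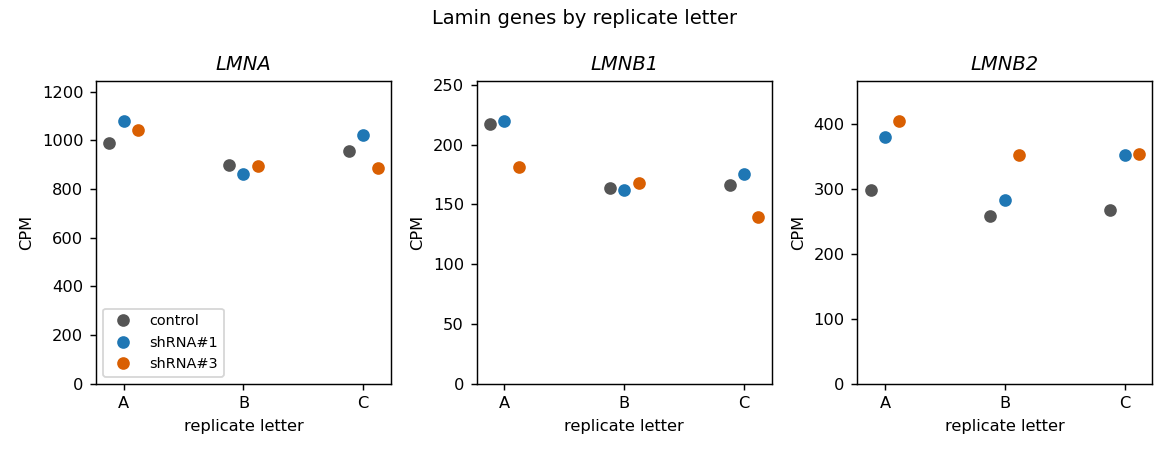
CPM of LMNA, LMNB1 and LMNB2 is plotted by replicate letter for control, shRNA#1 and shRNA#3 libraries, each point being 1 library. Library A is the highest of its group for all 3 genes, and the shRNA#3 points of LMNB2 (353 to 406 CPM) lie above control (258 to 299 CPM).

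Genes for proteins that bind filaments and the lamina were read in the pooled comparison. In it 15.9% of all tested genes were called higher and 17.0% lower. Of the 7 plakins, the giant proteins that tie filaments to junctions and to other cytoskeletal polymers, 5 fell and none rose, with a median log2 fold change of -0.79. The falls were largest in EPPK1 (17.5 CPM to 0.62 and 0.84) and PPL (88.2 CPM to 13.5 and 11.2), with smaller falls in EVPL (log2 -1.12), the desmosomal plakin DSP (log2 -0.79) and PLEC (log2 -0.48). The PLEC value with shRNA#3 alone was not called (adjusted p = 0.052, edgeR). Of 11 nuclear envelope partners 2 rose, 1 fell and 8 were not called, at a median of 0.133, where 33.0% of all tested genes were called. TMEM43 rose by 0.70, TOR1AIP2 rose by 0.26 and LEMD3 fell by 0.30 on the log2 scale. Taken by hairpin, TOR1AIP2 was not called with shRNA#1 (adjusted p = 0.071, edgeR) and LEMD3 was not called with shRNA#3 (0.134). Emerin (EMD) and the lamin B receptor (LBR) had values of 0.09 and -0.06 and were not called.

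In the LINC complex, which couples the lamina to the cytoskeleton across the nuclear envelope, 2 of 6 genes rose and 2 fell. Of all tested genes 15.9% were called higher and 17.0% lower. SYNE1, encoding nesprin-1, rose from 13.3 CPM to 36.7 and 32.6 CPM, and SUN2 rose by 0.33 on the log2 scale. SYNE3, encoding nesprin-3, which binds plectin and through it vimentin filaments, fell from 10.7 CPM to 2.70 and 6.71 CPM, and SUN1 fell by 0.39 on the log2 scale. The SYNE3 and SUN2 values with shRNA#3 alone were not called (adjusted p = 0.052 and 0.145, edgeR). Of the 6 genes for CaaX processing and lamin maturation, RCE1, the CaaX protease, fell by 0.48 on the log2 scale. The other 5 were not called in the pooled comparison. With shRNA#1 FNTA fell (adjusted p = 0.0013, edgeR) and NARF rose (0.036), and both were called between hairpins (0.019 and 0.024). ZMPSTE24, which cleaves prelamin A, had a pooled log2 fold change of -0.26 (adjusted p = 0.055, edgeR) and fell with shRNA#3 (adjusted p = 0.029, edgeR).

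Of 10 proliferation and senescence genes 9 were tested, and CDKN1A and CDKN2B, both cell cycle inhibitors, fell while none rose in the pooled comparison. Of all tested genes 33.0% were called. Other genes of the list were called with 1 hairpin only. With shRNA#1 HMGB1 rose (adjusted p = 0.0061, edgeR), and E2F1 (0.0049) and CCNA2 (0.029) fell. With shRNA#3 HMGB2 rose (adjusted p = 0.024, edgeR) and GLB1 fell (0.0085). E2F1 and HMGB2 were called between hairpins (adjusted p = 0.0095 and 0.0042, edgeR). CDKN1A fell from 612 CPM to 290 and 331 CPM, and CDKN2B from 57.9 CPM to 29.2 and 31.8 CPM. The median pooled log2 fold change of the list was -0.19.

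**Figure D5:**
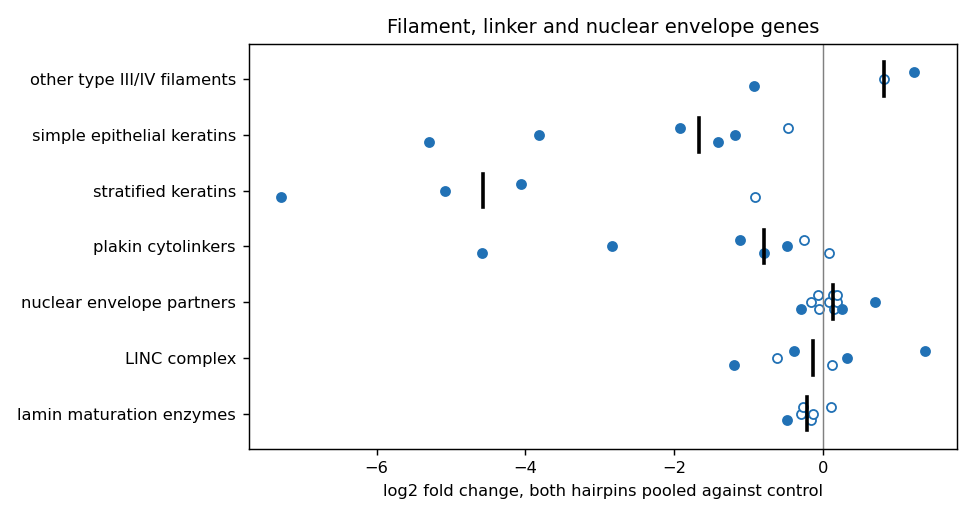
Each point is the pooled log2 fold change of a tested gene in lists of filament, linker and nuclear envelope genes, filled where the adjusted p was under 0.05, and the black bar is the list median. Keratins and plakins lie mostly to the left of 0 (medians of -1.66, -4.57 and -0.79), and the nuclear lists lie around 0 (0.133, -0.13 and -0.21). The stratified keratin median of -4.57 becomes -3.36 with KRT16, which had no count in knockdown, at the bound its floor allows.

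Ordered by level per kb, the control libraries ran LMNA (136 CPM per kb), LMNB2 (50.7), LMNB1 (50.2), VIM (40.9), NES (0.145) and SYNM (0.0477). LMNB2 and LMNB1 overlapped over libraries, as did LMNB1 and VIM. With shRNA#1 the order became VIM (199), LMNA (141), LMNB2 (62.5), LMNB1 (51.2), NES (0.316) and SYNM (0.138), with overlap between the B-type lamins. With shRNA#3 it was VIM (180), LMNA (135), LMNB2 (68.3), LMNB1 (44.8), NES (1.25) and SYNM (0.0348), with no overlap between neighbours. VIM thus passed LMNA in every knockdown library, at 164 to 210 against 123 to 155 CPM per kb. How the file's gene length was derived is not given in the sources used here, which affects levels between genes but no fold change.

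The tested genes with at least 10 CPM whose log2 CPM followed each member most closely over the 9 libraries were listed as a description. Such correlations largely follow the 3 groups, whose libraries share their hairpin. VIM was followed by HIC1, GJA1 and KCNK2 (r = 0.996 to 0.997), NES by NOL4L, TSC1 and DPY19L3 (r = 0.969 to 0.972) and SYNM by L1CAM, WDR70 and B4GALNT1 (r = 0.970 to 0.984). LMNA was followed by MCM5, PSMD3 and RBM15B (r = 0.951 to 0.967), LMNB1 by DIAPH3, USP39 and NASP (r = 0.969 to 0.981) and LMNB2 by CHAMP1 and SUMO2 (r = 0.970 to 0.974).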

How the data were processed

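The deposited values were raw read counts per gene, with no normalization, made by the authors from poly(A) non-directional libraries. The submitters' processing notes name HISAT2 2.0.5, featureCounts 1.5.0-p3 and hg38. Counts of 9 libraries, 3 per group, were taken as deposited. Genes were filtered with filterByExpr for the 3 groups (minimum count 10, minimum total 15), scaled with TMM factors and tested in R 4.3.3 by the quasi-likelihood test of edgeR 4.0.16 (glmQLFit, then glmQLFTest). P-values were adjusted by the Benjamini-Hochberg method across every gene tested. Following the study, both hairpins formed 1 arm in the pooled comparison, and hairpins were compared in a 3-group model of all 9 libraries. SE is the absolute log2 fold change over the square root of F, and intervals are 95% from the t distribution of the fit. P-values measure the spread between these libraries. The test was checked on simulated data.

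The genes and lists were chosen with earlier results of these data known. Named genes were the 9 members, MPZL3 and VIM-AS1, MKI67 and CDKN1A, genes overlapping a member, at most 4 called genes per list with the largest pooled change, the same sign with each hairpin and a mean of at least 1 CPM, and the 3 genes closest to each member over libraries, of which 1 is not reported here. GFAP, KRT7, KRT8, HMGB1, HMGB2, TOP2A, E2F1, CCNA2, GLB1, PLEC, EMD, LBR, ZMPSTE24, FNTA, NARF, WT1, DCN, THY1, PDGFRA, LUM, COL3A1, FAP, UCHL1, ELAVL3, ELAVL4, STMN2 and KRT16 were named after their values were seen. Alternatives were DESeq2 size factors, library totals, other filters, the Wald test of DESeq2 1.42.0, a replicate block, each library left out, a 2-fold minimum, other models and no division by gene length. Library totals were 16850854 to 23890191 counts.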

Additional observations from a re-analysis of the deposited data

Results flagged for a closer look

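NES and SYNM differed between the hairpins in the test of that difference. For NES the log2 difference, shRNA#3 minus shRNA#1, was 1.99 (adjusted p = 2.507e-04, edgeR), with all shRNA#3 libraries above all shRNA#1 libraries. For SYNM it was -1.99 (adjusted p = 0.00886, edgeR), with all shRNA#3 libraries below all shRNA#1 libraries. SYNM held 4 to 26 counts per library and passed the filter on low counts only through the shRNA#1 libraries. With no filter its adjusted p was 0.00383, and in the filtered table the call was lost without shRNA#3 library B (adjusted p = 0.0538, edgeR) or C (adjusted p = 0.0555, edgeR).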

How the results depend on the processing

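Of 379 recomputed fold changes of the 6 tested genes, 356 kept their direction and their side of the threshold, 8 lost a call, 4 gained a call and 11 changed sign. All sign changes were in LMNA or LMNB1, none of them called, and all came from leaving out a library. Over those runs the log2 fold change of LMNA ran from -0.0169 to 0.0554 pooled, from -0.012 to 0.146 with shRNA#1 and from -0.0951 to 0.0322 with shRNA#3, and that of LMNB1 from -0.15 to 0.0789 pooled and from -0.115 to 0.172 with shRNA#1. Leaving out each library gave 3743 to 5304 genes called in the pooled comparison, 4873 to 6302 with shRNA#1, 4465 to 5923 with shRNA#3 and 1046 to 1971 between hairpins, the lowest of the last without shRNA#3 library B. Members called ran from 1 to 3 pooled, the lowest without control library B, and from 2 to 3 with shRNA#3. Counts with shRNA#1 and between hairpins would include SYNM, which passed the filter only through the shRNA#1 libraries, and are not given. VIM kept its call against control in every alternative. With a 2-fold minimum 2342, 2605, 2443 and 628 genes were called in the pooled, shRNA#1, shRNA#3 and hairpin comparisons, by construction fewer. With a mean of at least 1 CPM SYNM was not tested and 1 member was called between hairpins.

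The replicate letters did not meet the criterion for pairing. Deviations from group means correlated at 0.052 to 0.466 between libraries with the same letter, over 0.1 in 7 of 9 pairs, and the same letter correlated best in 15 of 18 checks, a hint from the data and not from the design. With a replicate block 5773, 7798, 7277 and 3688 genes were called in the pooled, shRNA#1, shRNA#3 and hairpin comparisons, against 5269, 6032, 5536 and 1857 without it. Under the block LMNB2 was called with shRNA#1 (log2 0.30, adjusted p = 0.00378, edgeR), as it was with the DESeq2 Wald test (adjusted p = 0.046), with no filter (0.0449) and without shRNA#1 library B (0.0136). No other call of a member changed under the block. Without division by gene length the VIM share was 1.40%, 14.4% and 14.0% in control, shRNA#1 and shRNA#3, and LMNA over B-type lamins was 2.08, 1.89 and 1.76. Depth limits the neurofilament genes, NES and SYNM, where a few counts decide a value. The causes of these shifts were not tested.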
